A study of Mus musculus with 16 samples.

Results

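The internal exons of mouse protein-coding genes, with the introns on either side, were read here for free DNA ends mapped by BLISS. An exon was taken when GENCODE M21 (mm10) places it neither first nor last in its transcript, on chromosomes 1 to 19, at 80 to 300 bp. It also had to have 300 bp free of any exon on each side. This left 72789 exons in 13593 genes, of 185043 distinct internal exons of any length and 138524 of the right length. Coding sequence was not required, but 66527 of the 72789 exons were wholly coding in a transcript and 69801 held some coding bases. Their median length was 136 bp, 36437 lay in genes on the plus strand and 36352 in genes on the minus strand.

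AB22 is a mouse mesothelioma cell line, grown from a tumour of the cells that line the body cavities. The shHMGB1 cells carried a doxycycline-inducible pTRIPZ hairpin against Hmgb1, and the shCTRL cells an inducible control hairpin. Both were made by viral infection and puromycin selection, were induced with doxycycline and held in G1, and were irradiated with gamma rays from Caesium-137 at doses of 0, 3, 5 and 10 Gy. In BLISS an adapter is ligated inside fixed cells to blunted DNA ends, and the DNA next to it is transcribed in vitro and sequenced. The 8 groups had 2 biological replicates each, 16 libraries in all. The labels do not say whether either line is a single clone, and Hmgb1 has 0 exons that meet the rule, so the hairpin's target was not checked here.

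An exon is the part of a gene kept in the mature RNA, and the intron between exons is cut out of the transcript at splice sites. The donor site lies where an exon ends and an intron begins, and the acceptor site where the intron ends and the next exon begins. Nearly all introns start with the letters GT and end with AG, so the letters of the neighbouring exon, which replace the intron in spliced RNA, may or may not match those of the intron.

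Libraries held 127549 to 981944 ends on chromosomes 1 to 19, with a median of 782753, and 11058319 in all. The smallest was shCTRL 3 Gy replicate 2. Of a library's ends, 0.681% to 1.24% lay in the chosen exons, which was 1574 to 10564 ends. At least 1 end over the 16 libraries was found in 32437 exons (44.6%), 1916 exons had at least 10 and 114 at least 50. For the 40352 exons with no end, a count of 0 allows up to 3 ends, or 0.271 CPM (ends scaled to a common library total, as counts per 1e6) over the pooled libraries, which covers counting error only. The most frequent exon had 458 ends, and the top 1 percent of exons held 24.1% of the 114997 exon ends.

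Exons differed in how their ends were laid out, which the letters of 5 of the 12 exons with the most ends show. The letters are mm10 reference, taken from GENCODE M21 transcripts, 5′ to 3′ on the gene's strand, and the capitals are up to 10 bases around the position with the most ends.
Thra exon 7, chr11:98762921-98763067, plus strand: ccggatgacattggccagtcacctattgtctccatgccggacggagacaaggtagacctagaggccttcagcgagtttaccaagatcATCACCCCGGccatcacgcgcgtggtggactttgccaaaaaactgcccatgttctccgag
Smurf1 exon 14, chr5:144884583-144884761, minus strand: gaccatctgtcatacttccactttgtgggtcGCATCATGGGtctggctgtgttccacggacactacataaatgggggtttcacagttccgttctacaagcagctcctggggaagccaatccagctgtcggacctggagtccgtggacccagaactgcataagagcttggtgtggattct
Fn1 exon 5, chr1:71648009-71648146, minus strand: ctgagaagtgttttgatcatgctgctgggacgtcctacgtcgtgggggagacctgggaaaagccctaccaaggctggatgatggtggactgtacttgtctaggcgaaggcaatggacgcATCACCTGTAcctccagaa
Fbln2 exon 4, chr6:91252444-91252573, plus strand: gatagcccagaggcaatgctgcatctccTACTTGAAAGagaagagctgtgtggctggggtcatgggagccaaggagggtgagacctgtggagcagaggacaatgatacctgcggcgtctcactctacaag
Lgals1 exon 2, chr15:78927970-78928049, plus strand: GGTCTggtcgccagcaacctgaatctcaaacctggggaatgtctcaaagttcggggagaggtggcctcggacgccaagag

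In Thra, which encodes thyroid hormone receptor alpha, 56.1% of the exon's 458 ends lay at the 93rd base. The lowest, median and highest shHMGB1 libraries had 16.2, 43.9 and 74.3 CPM in the exon, against 29.9, 35.0 and 94.1 in shCTRL. In Smurf1, a ubiquitin ligase, 97.5% of 446 ends lay at the 37th base. Its exon had 18.3, 38.6 and 74.5 CPM in shHMGB1, and 25.4, 38.6 and 58.8 in shCTRL. The lines overlapped in both exons, neither exon had an end at its edge bases, and their flanks held 3 and 10 ends.

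The fibronectin exon (Fn1) looked different, with 255 ends at 41 positions and 17.3% at the most frequent of them. Its CPM values were 9.62, 21.2 and 30.3 in shHMGB1, and 12.7, 24.4 and 50.9 in shCTRL. Fbln2, a gene for the matrix protein fibulin 2, had 219 ends at 57 positions, at 11.2, 16.4 and 20.96 CPM in shHMGB1 against 13.7, 21.98 and 94.1 in shCTRL. In Lgals1, the gene of galectin 1, 51 of 153 ends lay on the first base of the exon. Its values were 6.55, 11.1 and 18.7 CPM in shHMGB1, against 8.38, 16.3 and 28.9 in shCTRL, and again the lines overlapped.

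The other exons of the 12 had 147 to 244 ends. Tdrd5, a germ cell gene, had 73.4% of its 244 ends at a single position, and Myh9, non-muscle myosin heavy chain, 72.5% of 204. In the translation factor exon of Eif4g1 the share was 9.36% of 203, in the cytolinker exon of Dst 13.2% of 174, in the splicing factor exon of Luc7l2 19.5% of 154 and in the thrombospondin exon of Thbs2 11.6% of 147. Ends of 10 of the 12 exons were found in every library. Luc7l2 had ends in 14 libraries and Thbs2 in 15.

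Ends were denser in exons than in the introns beside them in every library. The density in exons was 1.00 ± 0.145 CPM per kb (SD, n = 16), against 0.539 ± 0.075 in flanks. The exon-to-flank ratio was 1.33, 1.86 and 2.25 in the lowest, median and highest shHMGB1 libraries, and 1.55, 1.96 and 2.31 in shCTRL. The mean log2 ratio was 0.89 ± 0.20 (SD, n = 16) and above 0 in 16 of 16 libraries. An exact two-sided sign-flip permutation test gave p = 3.05e-05, the smallest that its 65536 arrangements can give.

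A single intron site carried much of the flank signal. In the intron beside the Slc36a1 exon at chr11:55220376-55220471, a gene for an amino acid transporter, 60867 ends lay around position 55220251, which was 24.6% of all flank ends and 0.385% to 1.48% of a library. The exon itself had 0 ends. Without 31 dense regions, each reaching 1 kb to either side of a cluster with 1000 ends or more, the exon-to-flank ratio was 2.44 ± 0.386 in shHMGB1 and 2.66 ± 0.209 in shCTRL (SD over 8 libraries each). The 16 libraries then ranged from 1.90 to 3.05.

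The edges of exons stood out far more than their interiors, and mostly on a single side. Each edge was read over its last exon base and the 3 intron bases next to it, called edge bases here, and the choice to read both sides apart was made after their values were seen. Of 27375 ends at edge bases, 25669 (93.8%) lay at the edge with the lower genome coordinate. In plus strand genes that edge is the acceptor, and in minus strand genes it is the donor. Acceptors of plus strand genes held 11225 ends at their edge bases, against 914 at acceptors of minus strand genes. Donors of minus strand genes held 14444, against 792 at donors of plus strand genes.

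Per base and 1000 edges, pooled over libraries, the lower edge bases had 77.0 ends in plus strand genes and 99.3 in minus strand genes. The upper edge bases had 5.43 in plus strand genes and 6.29 in minus strand genes. The intron 11 to 40 bases outside had 3.43 to 4.55. By library, the lower edge bases had 19.9 ± 4.79 times the density of that intron stretch and the upper edge bases 1.55 ± 0.395 times (SD, n = 16), with lowest libraries of 9.49 and 1.04. By library, lower edge bases had 8.98 to 20.7 times the ends of upper edge bases. The log2 ratio was 3.86 ± 0.33 (SD, n = 16), above 0 in 16 of 16 libraries, with p = 3.05e-05 by the exact sign-flip permutation test (the smallest it can give) and adjusted p = 4.58e-05 over 6 results. It was 3.79 in plus strand genes and 3.95 in minus strand genes.

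**Figure D1:**
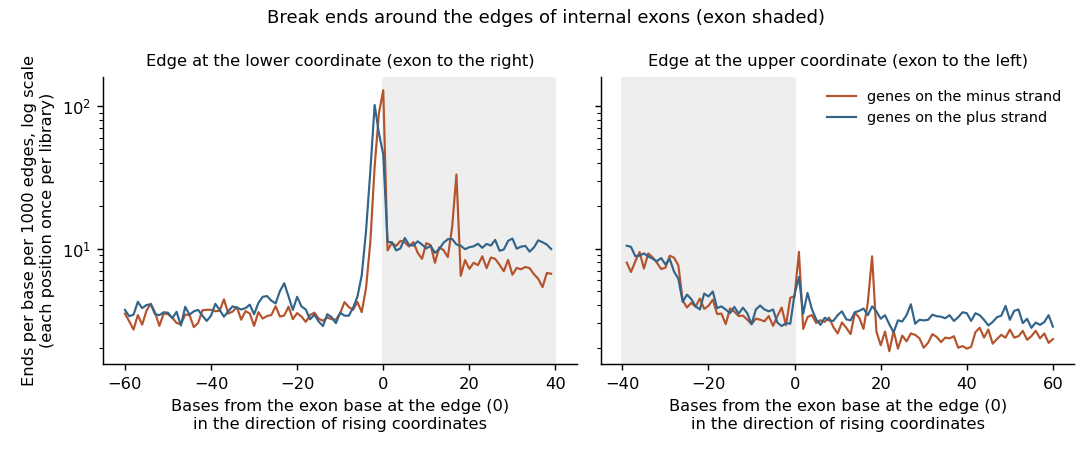
Ends per base and 1000 edges (each position counted once per library, pooled over 16 libraries) against distance from the exon edge in bases, for lower-coordinate and upper-coordinate edges of plus and minus strand genes. The peak sits at the lower-coordinate edge on both gene strands, and at the upper-coordinate edge the first 25 or so exon bases lie below those further in. Narrow peaks of 9.49 and 8.83 lie 1 and 18 bases outside the upper edge of minus strand genes.

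The asymmetry went on inside the exon. Over the 2nd to 26th exon base the density at the lower edge was 2.71 ± 0.596 times that of the intron outside in shHMGB1 and 3.13 ± 0.444 in shCTRL (SD over 8 libraries each). At the upper edge it was 1.12 ± 0.0922 in shHMGB1 and 1.15 ± 0.151 in shCTRL. Over the 28th to 40th base both edges were above the intron, at 2.42 ± 0.394 for the lower and 2.68 ± 0.377 for the upper edge (SD, n = 16). For the 25 bases next to the edge base the log2 ratio of lower over upper edges was 1.53 ± 0.25 and above 0 in 16 of 16 libraries (exact sign-flip permutation test, p = 3.05e-05, the smallest possible). The lists keep no read direction, so whether a position is the ligated end or the lower-coordinate end of the aligned read cannot be told apart.

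Donor and acceptor edges were also compared by the step at the edge. The step at an edge is the log2 ratio of ends 40 bp inside over 40 bp outside. These stretches include the edge bases. At lower edges of acceptors the edge base with the most ends lay in the intron (4739 ends). At lower edges of donors it was the last exon base (6951 ends). The step counts ends in the intron as outside and those on the exon base as inside. Over all genes the step was higher at donors by 0.28 ± 0.16 (SD, n = 16), in 15 of 16 libraries, with p = 6.1e-05 by the exact sign-flip permutation test. Within plus strand genes the difference was 0.18 ± 0.22 (exact permutation p = 0.00363, adjusted p = 0.00436, higher in 15 of 16 libraries). Within minus strand genes it was -0.04 ± 0.22 (exact permutation p = 0.562, above 0 in 4 of 16 libraries), with libraries from -0.21 to 0.66. The difference over all genes was thus larger than that within either strand. Within a gene strand the donor and the acceptor are also the upper and the lower edge, or the reverse, so kind of site and side cannot be told apart there. Away from the edge bases, acceptors had 3.98 ends per base and 1000 edges in the intron 11 to 40 bases outside, pooled over libraries. They had 8.09 over the 2nd to 21st exon base and 10.9 over the 22nd to 40th. Donors had 4.53, 9.63 and 8.81 in these stretches, so the last stretch was lower at donors. Whether donors have the higher step without edge bases was not tested.

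At the lower edge, the base that carried the ends moved with the letters of the neighbouring exon. The junctions below were chosen after their counts were seen, to show each case. Capitals are the 20 bases of the exon named, and coordinates are those of that exon. Lower case gives the 20 bases of the exon next to it, across the intron in the genome, in the transcript with the most exons.
Fn1 exon 18, donor, chr1:71627163-71627357, minus strand: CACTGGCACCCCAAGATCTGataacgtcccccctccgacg
Eif3a exon 18, donor, chr19:60767575-60767663, minus strand: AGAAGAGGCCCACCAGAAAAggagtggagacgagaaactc
Map4k4 exon 13, acceptor, chr1:39997021-39997182, plus strand: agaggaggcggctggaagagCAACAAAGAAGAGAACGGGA
Tsr1 exon 8, acceptor, chr11:74903820-74904013, plus strand: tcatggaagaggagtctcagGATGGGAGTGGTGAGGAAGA
Lgals1 exon 2, acceptor, chr15:78927970-78928049, plus strand: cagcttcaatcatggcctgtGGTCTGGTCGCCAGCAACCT
Lims1 exon 2, acceptor, chr10:58399021-58399180, plus strand: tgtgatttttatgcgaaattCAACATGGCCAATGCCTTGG

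The fibronectin junction goes on with an a, which does not match the G that opens most introns, and all 147 of its edge ends lay on the last exon base. In Eif3a, a subunit of a translation initiation factor, the next exon starts with a single matching g, and 102 edge ends lay 1 base into the intron, with 7 on the last exon base. In the kinase gene Map4k4 the previous exon ends in ag, as introns do, and 53 of 61 lay 2 bases into the intron. In Tsr1, a ribosome assembly gene, the previous exon ends in cag, and 48 of 53 lay 3 bases into the intron. In Lgals1 the previous exon ends in t and all 51 lay on the first exon base. Lims1, a focal adhesion gene, went against the pattern in the transcript read, where the previous exon ends in tt and 37 of 38 lay 2 bases into the intron. Other transcripts of Lims1, which may join another exon there, were not read.

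The same held over all lower edges. Where the previous exon ends in AG (21049 acceptors), 68.7% of edge ends lay 2 bases into the intron and 22.3% 3 bases. Where it ends in G but not AG (8581 acceptors), 88.9% lay 1 base in. Where it does not end in G (6807 acceptors), 86.6% lay on the first exon base. At donors whose next exon starts with GT (6699), 71.9% lay 2 bases in. With G but not GT (10825), 90.8% lay 1 base in, and with no G (18828), 92.2% lay on the last exon base.

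Each library showed it. At acceptors, the share 2 bases in was 68.4% ± 3.37 after AG, against 6.17% ± 2.51 after letters other than G (SD, n = 16). The share 1 base in was 88.8% ± 4.28 after G alone, against 5.94% ± 2.25. At donors, the share 1 base in was 90.1% ± 2.47 before G alone, against 3.66% ± 1.24, and the share 2 bases in was 71.1% ± 5.49 before GT, against 2.88% ± 1.25. All 4 differences were above 0 in 16 of 16 libraries (exact sign-flip permutation test, p = 3.05e-05 each, the smallest possible). Upper edges had 4.84 to 6.92 ends per base and 1000 edges in the 6 classes of letters. What share of the ends came from genomic DNA, from spliced RNA or from copies of it was not tested.

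**Figure D2:**
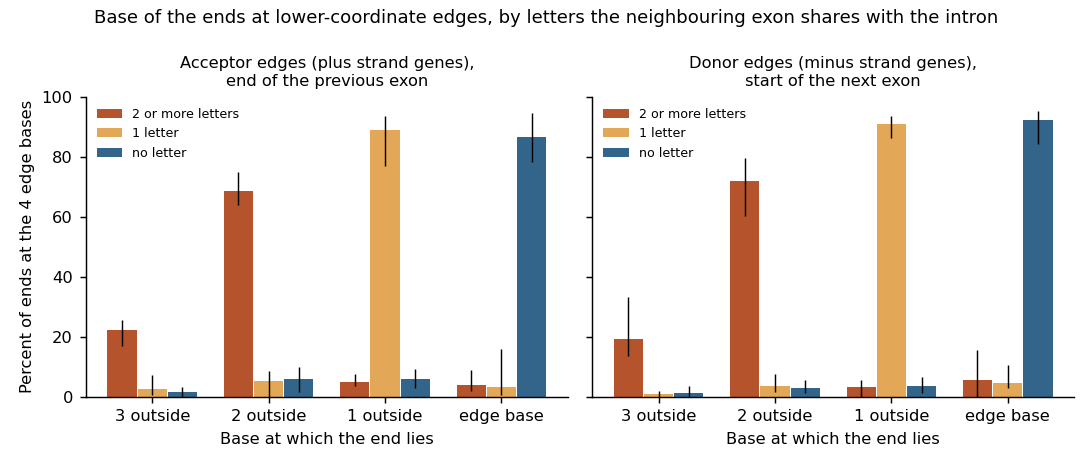
Percent of edge ends at each of the 4 edge bases (x axis, bases outside the exon or the edge exon base) at lower-coordinate acceptors and donors, by how many letters the neighbouring exon shares with the usual AG end or GT start of an intron. Bars are pooled values and vertical lines the range over 16 libraries. The highest bar is at the edge base with no shared letter (86.6% and 92.2%), at 1 base with 1 letter and at 2 bases with 2 or more.

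Exon ends followed the ends in the last exons of the same genes. In genes with no end in their last exons, the exon density was 0.328 ± 0.0262 CPM per kb and the exon-to-flank ratio 1.39 ± 0.140 (SD, n = 16). In the genes with the top 5 percent of last exon densities, the exon density was 5.46 ± 1.14 and the ratio 4.43 ± 0.572. The tiers between had ratios of 1.43, 1.74, 2.57 and 3.06 in rising order. Edge-base density over flank density was 3.18 in the tier with no such end and 21.9 in the top one, and both ratios were higher in the top tier in 16 of 16 libraries. Both measures come from the same libraries, so this is a description with no test, and the flanks of the Slc36a1 exon are left out of it and of the classes and lists that follow.

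**Figure D3:**
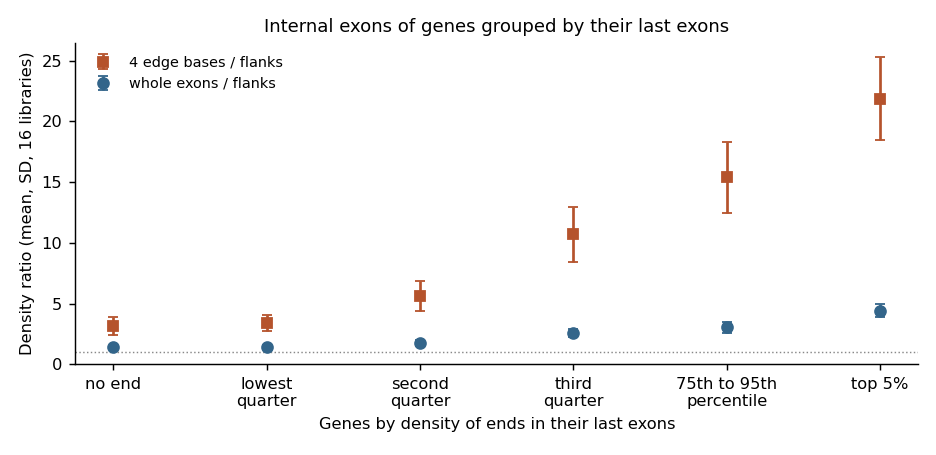
Exon-to-flank ratio and edge-base-to-flank ratio by the density of ends in the last exons of the same genes, from genes with no such end to the top 5 percent. Points are means and vertical lines the SD over 16 libraries, and both ratios are highest in the top tier, at 4.43 and 21.9.

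Exons that are skipped in some transcripts had fewer ends than exons always kept. In the 4019 genes with both, the exon-to-flank ratio was 2.08 ± 0.248 for cassette exons and 2.96 ± 0.438 for constitutive exons (SD, n = 16), lower for cassette exons in 16 of 16 libraries. Exons without a coding base had a ratio of 1.54 ± 0.266 and wholly coding exons 2.60 ± 0.332. Second exons were at 2.12 ± 0.258 and penultimate exons at 1.95 ± 0.287, against 2.68 ± 0.349 for middle exons, and both were lower in 16 of 16 libraries. The ratio was 1.97 in exons under 40% GC, 2.91 at 55% to 60% and 2.36 from 60% up, and 2.24 to 2.62 across the 4 length classes. Exons with another gene over them or their flanks had 1.94 ± 0.268, against 2.58 ± 0.330 for the rest. Which of these properties carries the differences was not tested, since they also differ in which genes they fall in.

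Exons of the highly transcribed, matrix and cytoskeleton lists had the most ends per kb among the lists, and exons of genes for blood, muscle and liver the fewest per kb. The list named highly transcribed had 37.9 ± 9.76 CPM per kb in exons (10 genes, SD, n = 16) and an exon-to-flank ratio of 9.66. Fn1 alone held 58.3% of those ends, and RNA levels of the listed genes were not read here. Collagen and matrix genes had 9.31 ± 2.38 (24 genes) and a ratio of 7.59, with 44.2% of the ends again in Fn1. In Fn1 the exon level was 45.6 ± 13.5 in shHMGB1 and 58.6 ± 20.4 in shCTRL (SD over 8 libraries each). The Thbs2 level was 21.8 ± 8.29 in shHMGB1 against 37.9 ± 10.9 in shCTRL, and in Fbn1, fibrillin 1, 5.99 ± 2.70 in shHMGB1 against 6.50 ± 1.37 in shCTRL. In Col1a2, a type I collagen chain, it was 37.2 ± 13.9 in shHMGB1 and 27.5 ± 14.4 in shCTRL.

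Actin and cytoskeleton genes had 8.55 ± 2.31 CPM per kb (17 genes) and a ratio of 6.01, with 32.3% of the ends in Dst. Among them Dst had 13.1 ± 5.88 in shHMGB1 and 15.9 ± 3.20 in shCTRL, and Myh9 33.2 ± 14.4 in shHMGB1 and 35.2 ± 7.42 in shCTRL. Vinculin (Vcl) had 16.5 ± 6.22 in shHMGB1 against 17.05 ± 5.90 in shCTRL. Translation factor genes had 7.25 ± 2.30 (11 genes) and a ratio of 7.40, with 37.2% of the ends in Eif3a. Eif3a had 13.3 ± 2.31 in shHMGB1 against 23.8 ± 4.80 in shCTRL, and Eif4g1 86.3 ± 30.4 in shHMGB1 against 71.0 ± 40.6 in shCTRL. Splicing and nuclear RNA genes had 5.50 ± 1.49 (13 genes) and a ratio of 6.64, led by Snrnp200, Srsf11 and Sf3b1, all of the splicing machinery. Chaperones of the endoplasmic reticulum had 3.26 ± 1.19 (13 genes) and a ratio of 4.40, led by Uggt1, Canx and Hsp90b1.

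Genes of double-strand break repair were below the mean of all exons, at 0.809 ± 0.313 CPM per kb (17 genes) and a ratio of 1.94. Prkdc, the catalytic subunit of DNA-dependent protein kinase, had 1.21 ± 0.487 in shHMGB1 and 0.800 ± 0.593 in shCTRL. Atm, a kinase that signals breaks, had 0.725 ± 0.776 in shHMGB1 against 0.412 ± 0.388 in shCTRL, and Parp1, which binds strand breaks, 1.74 ± 1.42 in shHMGB1 against 1.36 ± 1.88 in shCTRL. Striated muscle genes had 0.278 ± 0.172 (16 genes, among them Neb and Ttn), blood cell genes 0.329 ± 0.203 (13 genes, among them Sptb and Dock2) and liver genes 0.309 ± 0.193 (14 genes, led by Cp, Cps1 and F5). Their exon-to-flank ratios were 1.26 ± 0.752, 0.835 ± 0.497 and 1.64 ± 1.13 (SD, n = 16). They rest on only 152, 88 and 71 exon ends over all libraries. Neuronal genes had 1.07 ± 0.397 (19 genes) with 57.0% of the ends in the calcium channel gene Cacna1a. Mesothelial markers, the labelled origin of the cells, had 0.409 ± 0.375 (10 genes), resting on 30 ends, 16 of them in the 1 exon of mesothelin (Msln) that met the rule. Fewer cells with an end and fewer ends per cell cannot be told apart in these libraries.

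**Figure D4:**
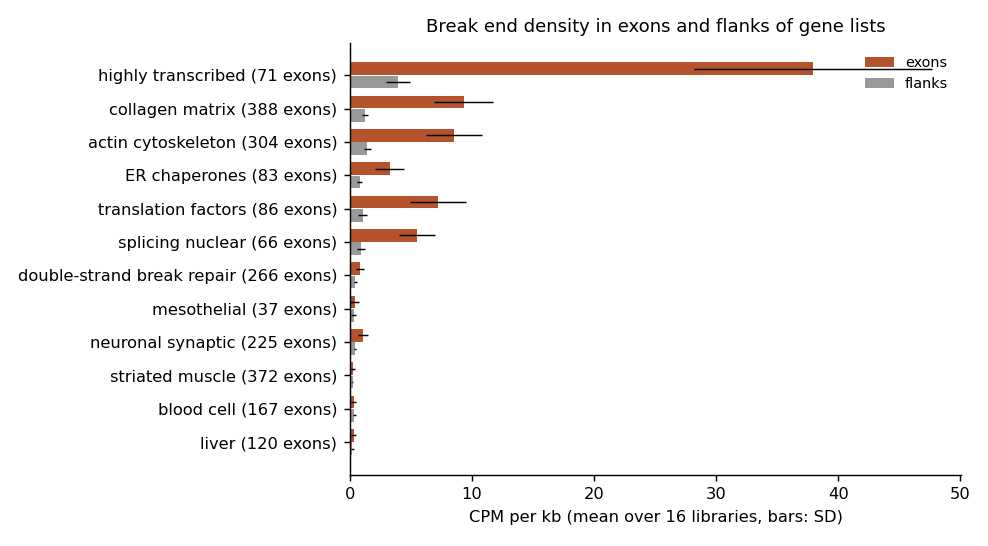
Density of ends (CPM per kb) in exons and in flanks for 12 gene lists, with the number of exons of each. Bars are means and lines the SD over 16 libraries. The list named highly transcribed is highest at 37.9 in exons, and muscle, blood and liver genes lie at 0.278 to 0.329.

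Neither the hairpin nor irradiation moved the exon-to-flank ratio past the threshold. The mean log2 ratio was 0.85 ± 0.23 in shHMGB1 and 0.93 ± 0.16 in shCTRL (SD over 8 libraries each), a difference of -0.08 with the same sign at 3 of 4 doses (exact permutation test within doses, p = 0.438, adjusted p = 0.773 over 8 results). It was 0.89 ± 0.23 in irradiated libraries (n = 12) and 0.88 ± 0.05 at 0 Gy (n = 4), with adjusted p = 0.945 by the exact permutation test within lines. Without shHMGB1 3 Gy replicate 2, whose ratio was the lowest, the difference between lines was 0.01. The difference between irradiated and unirradiated libraries was -0.04 without dense regions. In shHMGB1 the ratio was 2.03 ± 0.154 over the 4 libraries numbered 1 and 1.61 ± 0.199 over those numbered 2, against 2.01 ± 0.215 (numbered 1) and 1.83 ± 0.194 (numbered 2) in shCTRL. Without dense regions, shHMGB1 libraries ranged from 2.56 to 3.05 (numbered 1) and from 1.90 to 2.48 (numbered 2). The shCTRL libraries then overlapped, at 2.46 to 2.94 (numbered 1) and 2.35 to 2.87 (numbered 2).

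**Figure D5:**
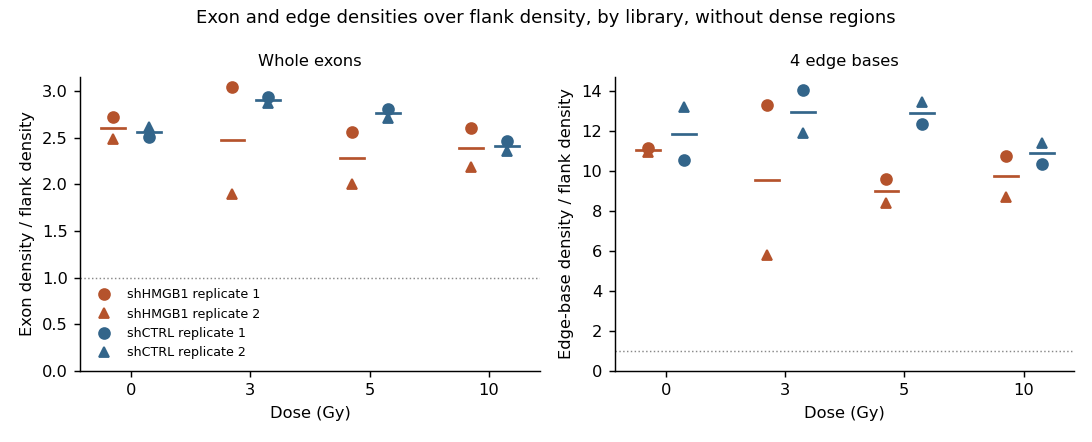
Exon-to-flank and edge-base-to-flank ratios of each library without dense regions, by dose in Gy, for shHMGB1 and shCTRL, with symbols for replicates and lines for the mean of 2. All libraries lie above 1 (dotted), the values of the lines overlap, and shHMGB1 3 Gy replicate 2 is the lowest in both panels, at 1.90 and 5.81.

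The share of all ends in exons was 0.993% ± 0.167 in shHMGB1 and 1.12% ± 0.114 in shCTRL (SD over 8 libraries each; exact permutation p = 0.137, adjusted p = 0.773). In flanks it was 2.22% ± 0.153 in shHMGB1 against 2.41% ± 0.423 in shCTRL (exact permutation test, adjusted p = 0.773). The flank share of shCTRL 3 Gy replicate 2 was 3.25%, and 2.25% without dense regions. Without these regions the flank share was 1.91% to 2.28% in shHMGB1 libraries and 2.07% to 2.44% in shCTRL libraries. Irradiated libraries had 1.04% ± 0.167 in exons and 2.28% ± 0.351 in flanks, against 1.10% ± 0.106 and 2.44% ± 0.208 at 0 Gy (exact permutation test, adjusted p = 0.773 for both). The step at exon edges was 0.57 ± 0.10 in shHMGB1 and 0.60 ± 0.09 in shCTRL (exact permutation test, adjusted p = 0.790). It was 0.59 ± 0.11 in irradiated libraries and 0.58 ± 0.03 at 0 Gy (exact permutation test, adjusted p = 0.931). The response to irradiation did not differ between lines past the threshold in any of the 4 measures (exact permutation test, adjusted p = 0.514 for each).

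The edge bases came closest to a difference between lines. Their density over that of the exon interior was 4.18 ± 0.478 in shHMGB1 and 4.84 ± 0.441 in shCTRL (SD over 8 libraries each). The log2 difference was -0.22, with shHMGB1 lower at 4 of 4 doses (exact permutation p = 0.0231, adjusted p = 0.0926 over 4 results added after the data were seen). With labels exchanged within dose and replicate number, the replicate block, this difference passed the threshold, as given further below. With shHMGB1 3 Gy replicate 1, shCTRL 0 Gy replicate 1 or shCTRL 10 Gy replicate 1 left out, the adjusted p by the exact permutation test was 0.0309 for the 3 Gy and 0 Gy libraries and 0.0494 for the 10 Gy library. Over flank density the log2 difference was -0.28 (exact permutation p = 0.136, adjusted p = 0.272), and adjusted p = 0.037 without shHMGB1 3 Gy replicate 1.

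Per gene, 250 genes had enough exon ends to be tested and 0 were called between lines, where 0% of all exon counts tested were called (edgeR quasi-likelihood test with Benjamini-Hochberg adjustment). At an unadjusted p under 0.05 there were 14 of 250 for exons and 29 of 346 for flanks, and DESeq2 called 0. Between irradiated and unirradiated libraries 0 of 250 were called, again 0% of those tested, with 13 of 250 at an unadjusted p under 0.05, and DESeq2 called 0. With shCTRL 3 Gy replicate 1 left out the irradiation count moved, but that group then keeps 1 library. The count filter then lets through 473 exon counts, so that run cannot be set against the 250. The median log2 difference between lines over tested exon counts was -0.01, and -0.26 with library totals in place of TMM factors. Among the lists, 14 collagen and matrix genes were tested, with 0 called and a median of 0.02, against -0.01 for all 250.

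Thbs2 and Eif3a exons had lower levels in shHMGB1 by value, at log2 -0.50 ± 0.25 (SE) for Thbs2 (edgeR, adjusted p = 0.652) and -0.51 ± 0.27 for Eif3a (edgeR, adjusted p = 0.745). Neither passed the test. Prkdc exons had a log2 difference of 1.05 ± 0.43 (SE; edgeR, adjusted p = 0.424), and it was the only repair gene of 17 with enough ends to be tested. Fn1 exons, with the most ends of any listed gene, had -0.02 ± 0.21 (edgeR, adjusted p = 0.987). These log2 values use TMM factors, while the CPM per kb levels of the same genes given for the lists use library totals. The line differences on these scales are therefore not alike.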

How the data were processed

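The authors deposited 1 list of break-end clusters per BLISS library of AB22 cells, with raw counts of ends not normalised by the authors, per the labels and the files, and the position of each end. Per the submitters' processing notes they used Trimmomatic 0.32, UMI-tools, BWA 0.7.5-r404, SAMtools and bedtools and the build mm10, with no order or settings given. The place of each end came from the deposited position field of its cluster. Other data types named in the series' design were not analysed here. The lists keep no read direction.

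Each end was placed 1-based at its position. Exons came from GENCODE M21, intervals shared by 2 genes were counted once (466 cases), and overlapping flanks were merged. Densities are CPM per kb, with CPM scaled to a library's ends on chromosomes 1 to 19. Letters came from GENCODE M21 transcripts, for each exon from the transcript with the most exons.

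Libraries were grouped by hairpin, dose and replicate number. Library values went through exact permutation tests, two-sided, with labels exchanged within dose (1296 arrangements) or within line (784), or by sign flips within libraries, and Benjamini-Hochberg adjustment. At 1 dose alone, an exact test of 2 libraries against 2 cannot go below p = 0.333. Ends per gene were tested with edgeR 4.0.16 (R 4.3.3; glmQLFit, glmQLFTest, TMM, filterByExpr) on 8 group means at an adjusted p under 0.05, with exon and flank counts of a gene as 596 rows of 1 table, after tests on simulated data. DESeq2 1.42.0 was an alternative. Other steps used scipy 1.17.1, numpy 2.4.6, matplotlib 3.10.9 and pandas 2.3.3 under Python 3.11.15. The design calls the replicates biological, and p-values measure the spread between these libraries. Depth was 127549 to 981944 ends per library, and intervals and floors cover counting error only.

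The exons, gene lists and tests were chosen with earlier results of these data known. The text names the 12 exons with the most ends (at most 1 per gene, predicted genes left out), genes past the threshold, Hmgb1, and the 3 genes of each list with the most exon ends, of which Lrrn4, Cdh2, Cacna1b, Gria2 and Lars are named here only. Some genes that this rule takes are not reported here. Slc36a1 and the junctions were named after their values were seen. Alternatives were other normalisation, no count filter, positions counted once or at most 3 times, no dense regions, 150 bp flanks, a strict rule without first or last exons of other transcripts (58132 exons), thinning to 127549 ends, a replicate block and each library left out. Edge-base measures, lower against upper edges, gene strand and letters were added after seeing the data.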

Additional observations from a re-analysis of the deposited data

Results flagged for a closer look

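In 2 of 42 groups of 8 libraries tested a library stood apart from the others, and chance flags about 1 in 20 groups. Both were shCTRL 3 Gy replicate 2, the library with the fewest ends. Its Thra exon had 94.1 CPM, against 29.9 to 48.7 in the other shCTRL libraries, and its Fbln2 exon also had 94.1, against 13.7 to 34.2. Each value rests on 12 of 127549 ends, with an exact (Clopper-Pearson) 95% interval of 48.6 to 164 CPM.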

How the results depend on the processing

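Of 637 alternative values over 30 results, 611 kept their direction and side of the threshold, 19 turned round, 6 passed it, and 1 count moved; the cause was not tested. The log2 exon-to-flank difference of irradiated against 0 Gy libraries was -0.045 with positions counted once, -0.038 with at most 3 ends per position, -0.040 without dense regions and -0.032 thinned, and the edge step was -0.0033 under the strict rule. With 1 library left out, the exon-to-flank difference was -0.18 to 0.010 between lines and -0.026 to 0.050 for irradiation, and the edge step -0.079 to 0.0074 and -0.0021 to 0.032. The edge-base log2 differences over flanks were -0.44 to -0.12 between lines and -0.14 to 0.0099 for irradiation, and over interiors -0.28 to -0.15 and -0.13 to 0.0045. Donor minus acceptor steps in minus strand genes were 0.083 with positions counted once (exact permutation test, adjusted p = 0.0442), 0.037 with at most 3 and 0.022 under the strict rule. They were -0.083 to -0.025 with 1 library left out, and 1 of these settings passed the threshold. The step in minus strand genes thus passed it in either direction, depending on the setting. The gene count for irradiation moved only with shCTRL 3 Gy replicate 1 left out, where the filter let more genes through. The replicate block gave -0.22 for edge bases over interiors between lines (exact permutation test, adjusted p = 0.0313) and -0.08 for the exon-to-flank ratio (exact permutation test, adjusted p = 0.588), and changed no other call on exons, but called 1 flank count. Deviations from the group mean of same-numbered libraries correlated at 0.0008 to 0.158 between lines, over 0.1 in 10 of 32 pairs. Within lines they correlated at 0.020 to 0.122, so all were above 0. With 2 libraries per group the deviations mirror each other, so both numbers give the same value. The labels do not say what the numbers stand for, and whether they pair libraries was not settled by this check. The GC-standardised alternative was not run, for want of a genome. Per gene, depth limits the tests to 250 exon counts.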

Other observations

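In minus strand genes a second, smaller peak lay inside the exon. The 18th exon base from the lower edge held 1615 ends, against 399 and 750 at the 16th and 17th and 305 and 405 at the 19th and 20th. These ends were spread over 821 exons, with at most 33 in a single exon of Fn1, and were found at 48.1 to 247 CPM in every library. Some junctions held ends at the edge with almost none in the exon. Herc2, a ubiquitin ligase gene, had 36 ends 2 bases into the intron and 1 in its exon, and Lims1 had 37 and 0. Clusters that lay across an exon edge held 1.01% to 3.03% of the ends in clusters that touched an exon.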
